A study of Mus musculus with 10 samples.

Results

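Sites bound by FLAG-tagged Nanog but called for Sin3a in no list, and lying more than 50 kb from any site with peaks of every list, are described here across mouse pre-iPSCs (partly reprogrammed cells). ChIP-seq had been run on 10 samples: 2 replicates for each of 4 groups, with 1 IgG and 1 input sample that were not analysed here. FLAG was precipitated from the Nanog + Sin3a line and from the Nanog line, and Sin3a from the Nanog + Sin3a line and from the Sin3a line. All lines go back to female 129/MF1 neural stem cells turned into pre-iPSCs that carry an Oct4-GFP-IRES-puro reporter, grown in serum with LIF. They carry stable, drug-selected PiggyBac insertions whose transgenes run from the CAG promoter. Tagged Nanog and Sin3a were added together to make the Nanog + Sin3a line, whereas the Nanog line received tagged Nanog plus empty vector and the Sin3a line received Sin3a plus empty vector. FLAG ChIP therefore reads the transgenic, constitutively driven Nanog. Each ChIP group is represented by 1 deposited peak list on mouse build mm9 that holds no value per replicate, so replicate error is unknown for every value given.

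Peaks of the 4 lists that share at least 1 base were merged into 45707 regions. Of these, 12306 had FLAG called in both lines but Sin3a in neither list, and are called Nanog-only below. Their edge-to-edge distance to the nearest of the 11761 regions with peaks of all 4 lists was over 50 kb for 5421 (the far regions, 44.1%, Wilson interval 43.2 to 44.9%) and at most 50 kb for 6885 (the close regions). The far regions made up 11.9% of all merged regions. They were chosen by peak calls and distance, so their number, the presence of FLAG and the absence of Sin3a peaks are the rule and not findings. Intervals are 95% intervals over regions. They cover counting error only, since neighbouring regions are not replicates.

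Nanog is a homeodomain transcription factor of the core pluripotency network that binds largely at enhancers, often together with Oct4 and Sox2, and its added expression helps pre-iPSCs to reach the pluripotent state. Sin3a is the scaffold of a co-repressor complex that carries histone deacetylases and has no DNA-binding domain of its own, so it reaches chromatin through other proteins. Absence of a Sin3a peak means that the signal stayed under the calling limit. The weakest summits that were still called held 20 Sin3a fragments in the Nanog + Sin3a line and 23 in the Sin3a line, and 95% of called Sin3a summits held at least 25 and 28 fragments in the same order. The files give no Sin3a signal at the far regions themselves, so Sin3a binding too weak to be called cannot be seen here.

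The strongest far region ranked among the strongest FLAG peaks anywhere. At chr17:49990270-49991069 the authors' fold enrichment at the summit (scaled ChIP pileup over the expected background) was 38.2 in the Nanog + Sin3a line and 36.7 in the Nanog line. That summit held 312 FLAG fragments in the Nanog + Sin3a line (exact Poisson interval 278 to 349) and 253 in the Nanog line (223 to 286), and by −log10 q the peak ranked 3 of 36286 and 9 of 38485 in these lists. It lay 235 kb from a region of all 4 lists and 99.4 kb from the next FLAG region, so it stood alone.

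The next in mean −log10 q differed in how they stood. At chr2:35701234-35701744 the fold was 27.5 in the Nanog + Sin3a line and 26.0 in the Nanog line, with another FLAG region 3.65 kb away. At chr8:24672241-24672996 it was 27.2 in the Nanog + Sin3a line and 35.0 in the Nanog line, and a FLAG region followed after 0.608 kb. Both were more than 100 kb from a region of all 4 lists. The region chr17:6180280-6180835 had folds of 32.3 in the Nanog + Sin3a line and 29.5 in the Nanog line, and chr10:60778066-60778659 had 26.5 and 34.1 in the same order. The chromosome 17 site was only 0.427 kb from a region that held a Sin3a peak as well as FLAG, although 100.003 kb from one with all 4 lists.

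The remaining sites of the 8 strongest were chr17:85114923-85116321, chr6:112834992-112835952 and chr18:24560535-24561175. The first had a fold of 36.5 in the Nanog + Sin3a line and 23.4 in the Nanog line, a ratio of 1.56, the only one of the 8 past 1.5-fold. The chromosome 6 site had folds of 24.2 and 20.2 in the Nanog + Sin3a and Nanog lines, and the chromosome 18 site 28.7 and 27.0. In each of the 8 the summits of both lists lay within 47 bp of each other. Strong far sites were found on every chromosome: the strongest of each had folds from 17.9 to 38.2 in the Nanog + Sin3a line and from 16.2 to 36.7 in the Nanog line. Far regions were 9 of the 20 strongest and 52 of the 100 strongest Nanog-only regions, counts not far from their 44.1% share of that class.

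**Figure D1:**
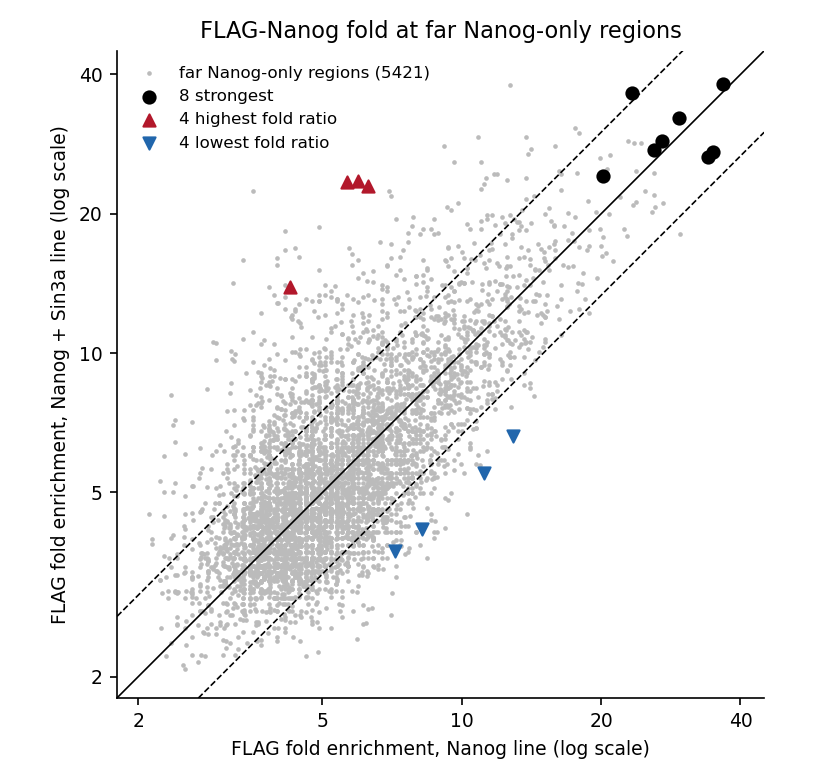
Each grey point is 1 of the 5421 far regions, by its FLAG fold enrichment in the Nanog line (x, log scale) and in the Nanog + Sin3a line (y, log scale). The solid line marks equal folds and the dashed lines 1.5-fold. Black points are the 8 strongest regions, and the triangles the 4 highest and 4 lowest ratios among regions with a −log10 q of at least 10 in both lists, from 4.14 down to 0.493. More points lie above the upper dashed line (674, 12.4%) than below the lower one (323, 5.96%). Over all 27050 regions with FLAG peaks in both lines these shares were 5.26% and 8.28%.

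Most far regions were of middling strength. Their fold had a median of 5.00 in the Nanog + Sin3a line (interval 4.98 to 5.12) and 4.91 in the Nanog line (4.91 to 5.06), with 10th and 90th percentiles of 3.38 and 10.5 in the Nanog + Sin3a line and of 3.49 and 9.18 in the Nanog line. The number of fragments over a summit had medians of 42 and 34 in the same order, and ranged from 21 to 312 in the Nanog + Sin3a line and from 18 to 253 in the Nanog line. Fragments come in whole numbers, so folds near the background take discrete steps and some medians coincide with an end of their interval. Folds in both lists went together about as closely at far regions (Spearman's rho 0.633 across 5421 regions) as at close regions (0.627). Over all 27050 regions with FLAG peaks in both lines rho was 0.745, and at regions of all 4 lists it was 0.835. These are descriptions that were not tested.

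Far regions were stronger than close ones in both lines. Above the median fold of their own list lay 55.9% of far and 46.3% of close regions in the Nanog + Sin3a line, a difference of 9.66 points (Newcombe interval 7.89 to 11.4). Without the close regions under 5 kb from a region of all 4 lists, it was 6.42 points (4.47 to 8.36). In the Nanog line these shares were 53.8% of far and 48.3% of close regions, a difference of 5.53 points (3.76 to 7.31). Of all 27050 regions with FLAG peaks in both lines, 59.8% were above this mark in the Nanog + Sin3a line and 65.7% in the Nanog line, so the far regions were below this wider background. The far median exceeded the close median on 20 of 20 chromosomes in the Nanog + Sin3a line and on 15 in the Nanog line, with 1 tie. The strongest 20% of the list held 25.2% of far and 16.3% of close regions in the Nanog + Sin3a line, against a background of 25.3%, and 17.4% of far and 13.5% of close regions in the Nanog line, against 27.5%.

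Regions of all 4 lists were stronger than the far regions, most of all in the Nanog line. The share above the list median was 55.9% for far regions and 70.8% for regions of all 4 lists in the Nanog + Sin3a line (a difference of -14.8 points, -16.4 to -13.3), and 53.8% and 81.8% in the Nanog line (-28.0 points, -29.5 to -26.5). Local background differed between far and close regions as well. The summit background was at the lowest value of its list in 50.7% of far regions, 44.6% of close regions and 50.3% of regions of all 4 lists in the Nanog + Sin3a line. In the Nanog line it was so in 51.8% of far regions, 45.4% of close regions and 50.3% of regions of all 4 lists. With the scaled pileup in place of fold, which leaves the background out, the far-minus-close differences were 9.22 points (7.45 to 11.0) in the Nanog + Sin3a line and 3.81 (2.03 to 5.59) in the Nanog line. The difference of the Nanog line no longer left out 0 among FLAG peaks with a −log10 q of at least 10 (1.67 points, -1.40 to 4.73). That of the Nanog + Sin3a line was 9.35 points there (6.32 to 12.4).

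Median strength was higher in the farthest than in the nearest bins of distance in both lines. In the Nanog + Sin3a line the median fold was 4.32 within 5 kb of a region of all 4 lists, 4.58 from 5 to 10 kb, 4.62 from 10 to 25 kb, 4.77 from 25 to 50 kb, 4.74 from 50 to 100 kb, 5.00 from 100 to 250 kb, 5.25 from 250 to 500 kb and 5.50 beyond 500 kb (5.25 to 5.76, n = 818). In the Nanog line the same bins had medians of 4.65, 4.75, 4.75, 4.75, 4.89, 4.91, 4.91 and 5.21 (5.06 to 5.36 beyond 500 kb), so they were level from 5 to 50 kb and again from 100 to 500 kb. No step was seen at 50 kb itself, where the intervals of the neighbouring bins overlapped in both lines.

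**Figure D2:**
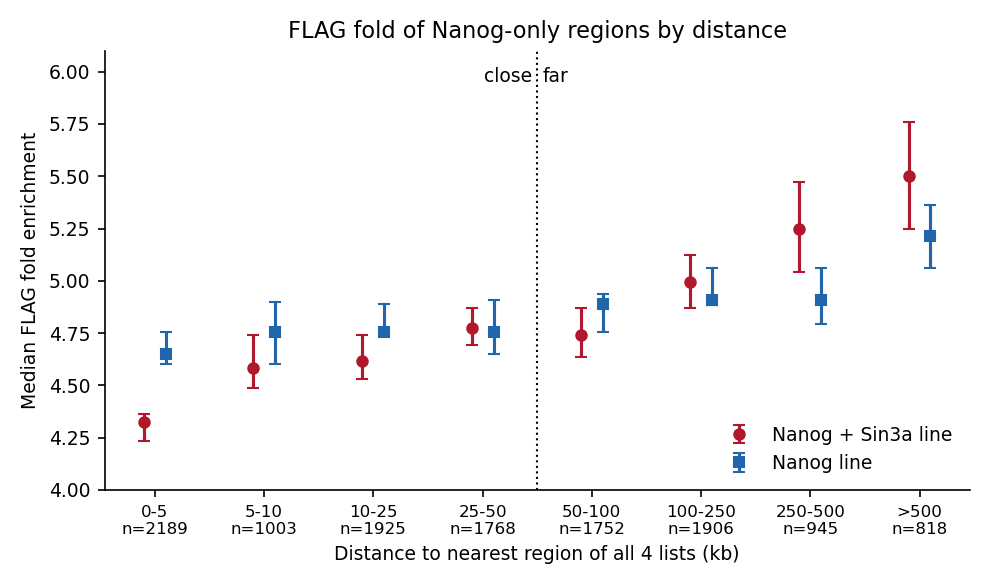
Median FLAG fold enrichment of Nanog-only regions (y, starting at 4) in 8 bins of distance to the nearest region of all 4 lists (x, kb), for the Nanog + Sin3a line (circles) and the Nanog line (squares). Bars are 95% order-statistic intervals over regions, n is the number of regions, and the dotted line marks 50 kb. Medians go from 4.32 to 5.50 in the Nanog + Sin3a line and from 4.65 to 5.21 in the Nanog line.

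Whether added Sin3a goes with a different Nanog signal at these sites was read from the ratio of folds, Nanog + Sin3a line over Nanog line. At far regions its median on the log2 scale was 0.010 (-0.0037 to 0.023), and 2766 regions had the higher fold in the Nanog + Sin3a line against 2655 in the Nanog line. Over all 27050 regions with FLAG peaks in both lines the median was -0.14, and 34.9% were higher in the Nanog + Sin3a line, so the far regions stood 0.15 above the general shift. Close regions had a median of -0.055 (-0.065 to -0.046) and regions of all 4 lists -0.22 (-0.22 to -0.21). With a −log10 q of at least 10 required in every list, the far median turned to -0.029 (-0.040 to -0.017). That setting also drops weak Sin3a peaks and so changes which regions are far. With the same minimum in FLAG lists only, the far median was 0.047 (0.030 to 0.068). These are ratios of values each relative to its own list. With 1 list per line they have no replicate check.

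Past 1.5-fold higher in the Nanog + Sin3a line were 674 far regions (12.4%, 11.6 to 13.3%), where the background over all regions with FLAG peaks in both lines was 5.26%. Past 1.5-fold lower were 323 (5.96%, 5.36 to 6.62%), where it was 8.28%. Close regions had 7.74% past 1.5-fold higher, so the far share was larger by 4.69 points (3.62 to 5.78). Among regions of all 4 lists 1.17% were past this mark, a difference of 11.3 points (10.4 to 12.2). By distance, the share of Nanog-only regions past 1.5-fold higher was 4.75% within 5 kb of a region of all 4 lists and 17.0% beyond 500 kb. It had no step at 50 kb: it was 10.4% from 25 to 50 kb and 10.4% from 50 to 100 kb. The median log2 ratios of these neighbouring bins were -0.024 and -0.020. Past 1.5-fold lower, the far share minus the close one was -1.26 points (-2.13 to -0.375). Taken relative to the median of all regions with FLAG peaks in both lines, 957 far regions (17.7%) were past 1.5-fold higher and 142 (2.62%) lower, where the background on that scale was 8.04% higher and 3.79% lower.

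The order of the class medians was the same at matched strength. Regions with FLAG peaks in both lines were divided into 4 equal groups by the mean log2 fold of their lists. In the weakest group the median log2 ratio was -0.051 at far regions (-0.078 to -0.028, n = 1658) and -0.074 at close regions (-0.090 to -0.062). These intervals overlapped, and regions of all 4 lists had -0.18. In the strongest group the median was 0.14 at far regions (0.097 to 0.18, n = 1045), 0.050 at close regions (0.024 to 0.082) and -0.21 at regions of all 4 lists. Past 1.5-fold higher in that group were 22.8% of far regions, 15.7% of close regions and 0.579% of regions of all 4 lists. In the weakest group these shares were 4.34%, 4.07% and 2.73% in the same order. The division into 4 groups was chosen after the data were seen. Over all far and all close regions, not matched for strength, the far median log2 ratio was above the close one on 19 of 20 chromosomes.

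**Figure D3:**
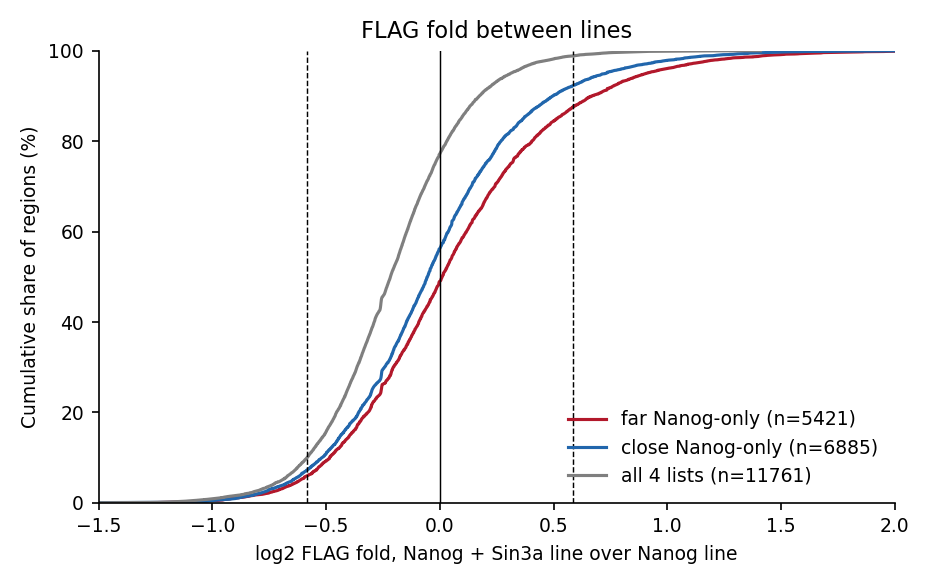
Cumulative share of regions (y, %) by the log2 ratio of FLAG folds, Nanog + Sin3a line over Nanog line (x), for far Nanog-only regions, close Nanog-only regions and regions of all 4 lists. The solid vertical line marks equal folds and the dashed lines 1.5-fold in each direction. The curve of the far regions runs rightmost, with a median of 0.010, against -0.055 for close regions and -0.22 for regions of all 4 lists.

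The highest ratios came from sites that were strong in the Nanog + Sin3a line and ordinary in the Nanog line. Among the 2053 far regions with a −log10 q of at least 10 in both lists, 273 (13.3%) were past 1.5-fold higher and 65 (3.17%) lower. Among all 13132 regions that met this minimum in both FLAG lists, 4.18% were past it higher and 5.27% lower. At chr2:146498407-146498956 the summit held 191 fragments in the Nanog + Sin3a line (165 to 220) and 38 in the Nanog line (26.9 to 52.2), with folds of 23.4 and 5.66, a ratio of 4.14. The summits of both lists were 1 bp apart there. Ratios of 3.94, 3.66 and 3.26 followed at chr15:8667009-8667571, chr10:47086295-47086890 and chr1:125144352-125144743. These 4 sites lay from 160 kb on chromosome 2 to 1788 kb on chromosome 10 from a region of all 4 lists. The median over far regions, all beyond 50 kb by the rule, was 151 kb. The 4 sites with the lowest ratios, given next, lay from 261 to 1228 kb away.

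Ratios at the low end were closer to equality. The lowest, at chr10:83589703-83590395, came from folds of 5.50 in the Nanog + Sin3a line and 11.2 in the Nanog line (0.493), with 42 fragments (30.3 to 56.8) and 72 fragments (56.3 to 90.7). Its summits lay 350 bp apart, so the lists did not peak at the same place. The others were chr1:183465564-183466130 (0.509), chr18:55503664-55504199 (0.513) and chr17:17141607-17142424 (0.522). On chromosome 18 the folds were 6.62 in the Nanog + Sin3a line and 12.9 in the Nanog line, with summits 14 bp apart. Far regions past 2-fold numbered 213 higher (3.93%, background 1.39%) and 27 lower (0.498%, background 0.702%).

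Peaks called in 1 FLAG list only differed between far and close in the same direction as the ratios. Both come from the same FLAG lists, so the calls are not separate support. No such shares over all regions with a FLAG peak are given here, so which of these classes departs from the general share cannot be told. Without regard to reproducibility, 11373 FLAG-only regions lay over 50 kb from a region of all 4 lists, and the 5421 far regions are the 47.7% of them called in both lines. A further 30.0% were called in the Nanog + Sin3a line alone and 22.3% in the Nanog line alone. For the 14907 FLAG-only regions at most 50 kb away these shares were 46.2% in both, 21.6% in the Nanog + Sin3a line alone and 32.2% in the Nanog line alone. The far share was larger by 8.42 points for the Nanog + Sin3a line alone (7.35 to 9.50) and far minus close was -9.90 points for the Nanog line alone (-11.0 to -8.83).

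Far regions were spread more evenly over the genome than the other classes. Their density ran from 1.01 per Mb on the X chromosome to 2.78 per Mb on chromosome 18, a 2.75-fold range. Close regions ranged from 0.336 to 5.29 per Mb and regions of all 4 lists from 0.762 to 9.22 per Mb, both with the X chromosome lowest and chromosome 11 highest. Across the 20 chromosomes the density of far regions was only weakly related to that of regions of all 4 lists (Spearman's rho 0.170), while that of close regions followed it (0.868). The rule itself favours far regions where co-occupied sites are sparse, so these values describe and do not test.

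Far regions outnumbered close ones on chromosomes 3, 13, 14, 18 and X. On chromosome 14 they numbered 195 against 113 close regions, 63.3% of its Nanog-only regions. Chromosomes 11 and 19, which are dense in regions of all 4 lists, had the lowest shares of far regions, at 30.7% and 29.9%. Densities are per Mb of full mm9 length, with no correction for mappable sequence or copy number.

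**Figure D4:**
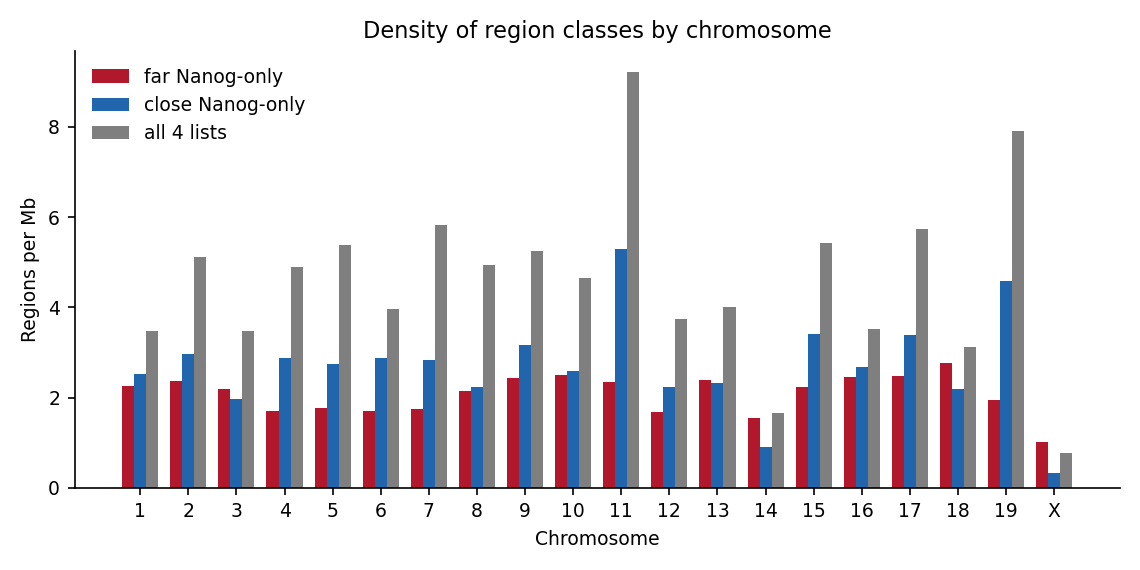
Regions per Mb of mm9 chromosome length (y) on each chromosome (x), for far Nanog-only regions, close Nanog-only regions and regions of all 4 lists. Far regions range from 1.01 to 2.78 per Mb, close regions from 0.336 to 5.29 and regions of all 4 lists from 0.762 to 9.22.

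The X chromosome of these female cells held few sites of any class, but relatively more of the far ones, which the rule favours where co-occupied sites are sparse. It carried 168 far regions (3.10%, 2.67 to 3.59%), 56 close regions (0.813%) and 127 regions of all 4 lists (1.08%). Per Mb this was 0.474 times the autosomal density for far regions, 0.122 times for close regions and 0.162 times for regions of all 4 lists. Far regions on X were of much the same strength as those on autosomes. Their median fold was 4.87 on X (4.49 to 5.38) and 5.00 on autosomes in the Nanog + Sin3a line, and 4.63 (4.45 to 5.06) and 4.94 in the Nanog line. The strongest of them, chr X at 100507025-100507483, had folds of 24.5 in the Nanog + Sin3a line and 17.7 in the Nanog line.

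The 3 most distant far regions were all on X. They lay 7938 kb (chr X at 118346082-118346351), 7854 kb (83022475-83022812) and 6947 kb (81702726-81703142) from a region of all 4 lists. The first and second had folds of 5.50 and 3.98 in the Nanog + Sin3a line, and 6.89 and 4.45 in the Nanog line. The third had a fold of 16.0 in the Nanog + Sin3a line against 3.99 in the Nanog line, from 125 fragments (104 to 149) and 25 fragments (16.2 to 36.9), with summits 4 bp apart. The fourth, at chr15:19325454-19325849, was 6222 kb away. It had a FLAG neighbour at 4.18 kb and folds of 7.03 and 5.08 in the Nanog + Sin3a and Nanog lines.

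Most far regions had FLAG company within 50 kb and no Sin3a region that near, but they stood more alone than close regions. Another region with a FLAG peak of either line lay within 10 kb of 48.1% of them (46.8 to 49.4%) and within 50 kb of 79.0%, at a median distance of 11.1 kb. With FLAG peaks of both lines required in the neighbour, these shares were 31.8% and 61.6%. A FLAG region of either line lay within 10 kb of 79.1% of close regions, at a median distance of 2.55 kb. For close regions 25 to 50 kb from a region with peaks of every list, the share within 10 kb was 59.8%. By the rule, every close region and no far region has such a region, with FLAG and Sin3a, within 50 kb. The rule therefore sets part of the FLAG contrast and of the lack of Sin3a nearby. The 1140 far regions without a FLAG neighbour within 50 kb were not weak: their median fold was 5.28 in the Nanog + Sin3a line (5.15 to 5.50) and 4.98 in the Nanog line (4.91 to 5.08). The 2608 with a neighbour within 10 kb had medians of 4.97 and 5.06. Their median log2 ratio was 0.058 (0.027 to 0.098) for the isolated regions and -0.028 (-0.047 to -0.012) for those with company. The isolated regions also lay farther from a region of all 4 lists, at a median of 257 kb against 131 kb. Among Nanog-only regions that ratio had a median of -0.100 within 5 kb and 0.077 beyond 500 kb. The part of distance in the contrast was not tested.

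A region with any Sin3a peak lay at a median of 90.9 kb, within 10 kb of 9.43% of far regions and within 50 kb of 1352 (24.9%, 23.8 to 26.1%). Such neighbours hold fewer than all 4 lists, or the rule would have left the site out. The nearest Sin3a region of those 1352 held FLAG as well in 1081 and was called in 1 Sin3a list only in 1118 (82.7%). Far regions with such a neighbour had a median fold of 4.62 in the Nanog + Sin3a line (4.51 to 4.74), and the 4069 without one had 5.16 (5.10 to 5.25). In the Nanog line these medians were 4.88 (4.75 to 4.94) and 5.00 (4.91 to 5.06).

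**Figure D5:**
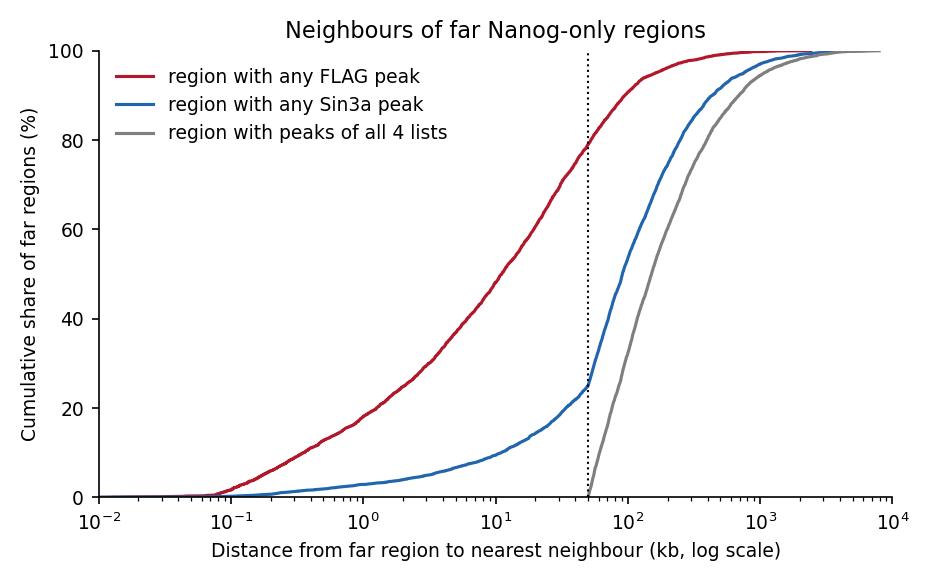
Cumulative share of the 5421 far regions (y, %) by distance to the nearest other region with any FLAG peak, with any Sin3a peak, and with peaks of all 4 lists (x, kb, log scale). The dotted line marks 50 kb, where the FLAG curve stands at 79.0%, the Sin3a curve at 24.9% and the curve of all 4 lists at 0 by the rule.

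Some far regions came in dense groups. The fullest windows of 100 kb held 10 of them. One, at chr1:71347921-71445152, lay 158 kb from the nearest Sin3a peak of any kind and had 2 more FLAG regions, with folds from 3.23 to 12.2 in the Nanog + Sin3a line and from 2.23 to 14.8 in the Nanog line. Another, at chr18:54982451-55082094, lay 960 kb from any Sin3a peak and had 3 more FLAG regions, with folds from 3.58 to 17.1 and from 3.49 to 20.0 in the same order of lines. Next came 3 windows tied at 9 far regions, and the first of these in genome order, at chr1:92320546-92402296, also held 2 regions with a Sin3a peak. Within the 3 windows described the far regions were about evenly divided in direction, with 4, 5 and 4 of them higher in the Nanog + Sin3a line. No mm9 gene annotation was used here, so genes at these places are not named.

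Groups of far regions that leaned to 1 direction between the lines were also seen. Among 251 windows of 5 Mb with at least 10 far regions, the highest median log2 ratio was 0.56 on chromosome 11 from 25 to 30 Mb (9 of 11 higher), where 12 regions of all 4 lists had a median of -0.18. On chromosome 6 from 50 to 55 Mb it was 0.36 (10 of 11 higher), and there the 22 close regions (0.39) and the 29 regions of all 4 lists (0.48) had high medians too. The lowest was -0.37 on chromosome 17 from 65 to 70 Mb (3 of 11 higher), where 15 regions of all 4 lists had a median of -0.14. Higher in the Nanog + Sin3a line were 51.0% of all far regions and 34.9% of all 27050 regions with FLAG peaks in both lines. The count of this lowest window was therefore not far from that wider background. These windows were chosen after the values were seen and were not tested.

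FLAG peaks of far regions were of about ordinary width for their lists. Their median was 344 bp in the Nanog + Sin3a line and 328 bp in the Nanog line. Over all peaks of these lists it was 351 and 358 bp, and in regions of all 4 lists 542 and 627 bp. As merged regions, the far ones had a median width of 402 bp (397 to 409) and the close ones 388 bp (385 to 393). Regions of all 4 lists, which join peaks of more lists, had 894 bp. Of the far regions, 105 (1.94%) held more than 1 peak of a FLAG list. The summits of both FLAG lists lay at a median of 35 bp from each other, and within 100 bp at 86.4% of far regions (85.5 to 87.3%). For close regions that share was 84.8%, 1.63 points lower (0.379 to 2.87). Over all 27050 regions with FLAG peaks in both lines it was 82.3%, with a median offset of 38 bp. Wider than the median Nanog-only region were 51.9% of far and 48.4% of close regions, a difference of 3.48 points (1.70 to 5.26), so far regions were both wider and stronger. Its part in the strength difference was not tested.

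Sites just inside and just outside the 50 kb mark were much alike in range. The nearest far regions, at chr15:27611207-27611659, chr5:92340290-92341186, chr6:28481286-28481652 and chr9:41445014-41445341, lay from 50006 to 50066 bases away. Their folds ran from 3.28 to 22.5 in the Nanog + Sin3a line and from 4.14 to 16.4 in the Nanog line. The farthest close regions, at chr3:65280862-65281494, chr15:11996231-11996748, chr6:87571232-87571722 and chr9:100296144-100296452, lay from 49939 to 49978 bases away. Their folds ran from 5.86 to 19.3 in the Nanog + Sin3a line and from 4.91 to 17.8 in the Nanog line.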

How the data were processed

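The deposited lists are on mm9, per the submitters' processing notes, which name Bowtie 1.0.0, SAMtools 0.1.19 and FastQC 0.10.1 without saying what each did. The peak caller and any pooling of replicates were not given in the sources used here. No peak passes the mm9 length of its chromosome (0 peaks, GenomeInfoDb 1.38.1). The deposited score is the authors' −log10 q times 10 without decimals. The deposited fold, −log10 p and −log10 q are the authors' own values at the summit, and were used only to describe or rank peaks and to form ratios.

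Whole fragments over a summit were recovered from fold and −log10 p. Fold was read as scaled pileup plus 1 over background plus 1 and −log10 p as a Poisson tail, a reading that rests on the values since no header or label states it. From 99.56% to 99.98% of each list gave 1 whole number (tolerance 0.005), and in 16000 simulated peaks 99.4% did, all of them right. Fragments were had for 5413 far regions in the Nanog + Sin3a line and 5404 in the Nanog line. The FLAG lists carried 1.37 and 1.15 ChIP tags per control tag in that order. Total reads are unknown here, and duplicates cannot be seen.

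Where a region held several peaks of a list, the one with the highest −log10 q was used. Merging and distances were checked against bedtools 2.31.1, with 0 differences. The named sites are the 8 strongest by mean −log10 q, the 4 farthest, the 4 highest and 4 lowest ratios at a −log10 q of at least 10 in both FLAG lists, 4 on each side of 50 kb, and 3 windows. The strongest X site was named after its values were seen. Members and lists were chosen with earlier results of these data known. The gene and promoter tables at hand are of GRCm38, so no gene, motif or sequence was assigned, and the planned work on them was not run. No p-value was computed. Tools were pandas 2.3.3, SciPy 1.17.1, NumPy 2.4.6 and Matplotlib 3.10.9 under Python 3.11.15.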

Additional observations from a re-analysis of the deposited data

How the results depend on the processing

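No paired analysis was possible because the deposited lists hold no values per replicate, and leaving out a replicate was not possible either. Of 88 alternative values, 53 kept their call or stayed near the main value (counts within 1.5 times), 33 moved further and 2 lost their call. No far-minus-close difference changed sign, but the median log2 ratio did in 1 setting. Causes were not tested, and a stricter setting also changes which peaks and sites are left.

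The share of far regions (44.1%) was 58.4% over 25 kb, 29.8% over 100 kb, 33.1% with distance to any Sin3a region, 50.02% and 63.8% at a −log10 q of 5 and 10 in all lists, and 58.0% at 10 in FLAG lists only. In those last 3 settings the median folds were 5.51, 7.25 and 7.53 in the Nanog + Sin3a line, and 5.52, 7.22 and 6.98 in the Nanog line. With distance to any Sin3a region the Nanog + Sin3a median was 5.16.

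Far minus close stayed positive, at 6.42 to 11.8 points in the Nanog + Sin3a line. In the Nanog line the interval included 0 at a −log10 q of 10 in all lists (2.06 points) and in FLAG lists only (1.67).

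The median log2 ratio (0.010) was 0.027 over 100 kb, 0.031 by distance to any Sin3a region, -0.029 at a −log10 q of 10 in all lists, 0.047 in FLAG lists only and 0.15 relative to the median of all regions with FLAG peaks in both lines. The regions past 1.5-fold numbered 400 higher (9.15%) and 167 lower (3.82%) of 4371 at 10 in all lists. In FLAG lists only they were 315 (13.0%) and 72 (2.97%) of 2421. The main shares were 12.4% and 5.96%. For regions re-made at these minima, the share over all regions with FLAG peaks in both lines was not computed. Lower ones numbered 201 over 100 kb (5.48% of 3669, background 8.28%) and 142 relative to the general median (2.62%, background 3.79%). Past 2-fold there were 213 higher (3.93%, background 1.39%) and 27 lower (0.498%, background 0.702%).

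The X share was 2.46% over 25 kb, 4.09% over 100 kb and 2.40% at a −log10 q of 10 in all lists. At 10 in FLAG lists only, the median width was 492 bp and the summit offset 26 bp. Neighbours with FLAG peaks in both lines gave 31.8% within 10 kb and 61.6% within 50 kb. The pileup, the close regions beyond 5 kb, the general median and the segment of chromosome 6 were alternatives chosen after seeing the data.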
